A study of Mus musculus with 24 samples.

Results

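The question addressed here was whether the difference between ovariectomized, estradiol-replaced mice (OVXE2) and sham-operated mice (Sham) was the same in 2 tissues around teeth with periodontitis. The measure, called the tissue difference below, is the OVXE2 to Sham change in the dentoalveolar complex (DAC) minus that in gingiva, on the log2 scale. It was computed from 16 of the 24 libraries of the series, 4 in each of 4 groups (Gingiva Sham, Gingiva OVXE2, DAC Sham and DAC OVXE2), chosen by their titles. The other 8 libraries, from ovariectomized mice given vehicle, entered only an alternative fit.

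All mice were female, wild-type C57BL/6J and 11 weeks old at the start. Sham mice had sham surgery on day 0 and received vehicle (corn oil, 100 µL) from day 4. OVXE2 mice had both ovaries removed on day 0 and received 1 µg per day of estradiol benzoate in the same volume of oil under the skin from day 4. Every mouse of both groups had a silk ligature tied around the right and left upper second molars on day 7, which induces periodontitis, and was killed on day 14. There is no group without a ligature. OVXE2 and Sham thus differ both in the ovaries and in the injected hormone, and the parts of the 2 in any difference cannot be told apart. Gingiva was the tissue around the 3 upper molars. The DAC was the bone with its teeth, cleaned of soft tissue. By title a group's 4 libraries are biological replicates. Whether each is a separate animal, and whether 1 mouse gave both tissues, is not stated, and p-values therefore measure only how these libraries spread.

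Estradiol acts through the nuclear receptors ERα (gene Esr1) and ERβ, which bind DNA at estrogen response elements and also act through other transcription factors. In bone marrow, estrogen is known to restrain B lymphopoiesis, and in bone it restrains resorption by osteoclasts. The oral epithelium and the connective tissue of the gingiva also carry estrogen receptors. Gingiva is mostly stratified epithelium over connective tissue, whereas the DAC holds bone, marrow, periodontal ligament, dental pulp and teeth.

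The 16 libraries held 14771830 to 27302805 gene counts, with 16830 to 19142 genes at a count of 1 or more. The tissue labels were checked on defining markers, which were present as labelled: gingival libraries held 49865 to 86821 CPM (counts scaled to a common library size) of keratin 13 (Krt13), of the oral epithelium, and DAC libraries 101 to 2712. For type I collagen (Col1a1) the ranges were 1988 to 4737 and 52561 to 74342. Counts of nasal glands and olfactory mucosa, which lie above the upper jaw, took 0.493 to 2.8% of DAC Sham counts and 0.465 to 1.02% of DAC OVXE2 counts. Genes of suprabasal and cornified epithelium took 0.133 to 0.316% and 0.113 to 0.985%, the highest share being in DAC OVXE2 library 1. DAC OVXE2 library 3 stood farthest from the others of its group. Its median absolute deviation from their median was 0.342 on the log2 scale, against 0.123 to 0.256 for the other 7 DAC libraries. By other measures it was close to single DAC Sham libraries. Its root mean square deviation was 0.703, against 0.698 for DAC Sham 4 and 0.691 for DAC Sham 2. Its mean correlation with the others of its group was 0.9617, against 0.9615 for DAC Sham 2. The named genes whose call for the tissue difference depended on DAC OVXE2 3 are given below with their values without it.

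Few genes passed a test for a different response in the 2 tissues. Of 13837 genes tested, 5 (0.0361%) passed the test of the tissue difference at an adjusted p under 0.05 (edgeR's quasi-likelihood test, Benjamini-Hochberg adjustment over all genes). The DAC change was the higher for Pi15, Lgi2 and Rhobtb1 (3 genes, 0.0217%) and the lower for Plac8 and Fam129c (2 genes, 0.0145%). At an unadjusted p under 0.05 there were 982 genes (7.1%), 472 with the DAC change higher (3.41%) and 510 with it lower (3.69%). In the same fit 156 genes (1.13%) passed for OVXE2 against Sham in the DAC, 72 higher (0.52%) and 84 lower (0.607%). None (0%) passed in gingiva by edgeR or limma-voom, where DESeq2 called 10 genes; by edgeR 798 genes (5.77%) had an unadjusted p under 0.05. The coefficient of biological variation came to 0.162 in a fit of gingiva alone and 0.304 in one of the DAC alone, so gingival libraries varied less among themselves. The edgeR fit used a single spread per gene for both tissues. With limma-voom and a weight per tissue, 1240 genes in gingiva and 990 in the DAC had an unadjusted p under 0.05. Without the weights these were 679 and 1572. The weighted fit called 117 genes in the DAC, none in gingiva and Plac8 alone for the tissue difference. Pi15, Lgi2, Rhobtb1 and Fam129c each had an adjusted p of 0.053 there (limma-voom). Passing in the DAC and not in gingiva does not by itself show a difference, and the test of the difference is the one given for each gene below.

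**Figure D1:**
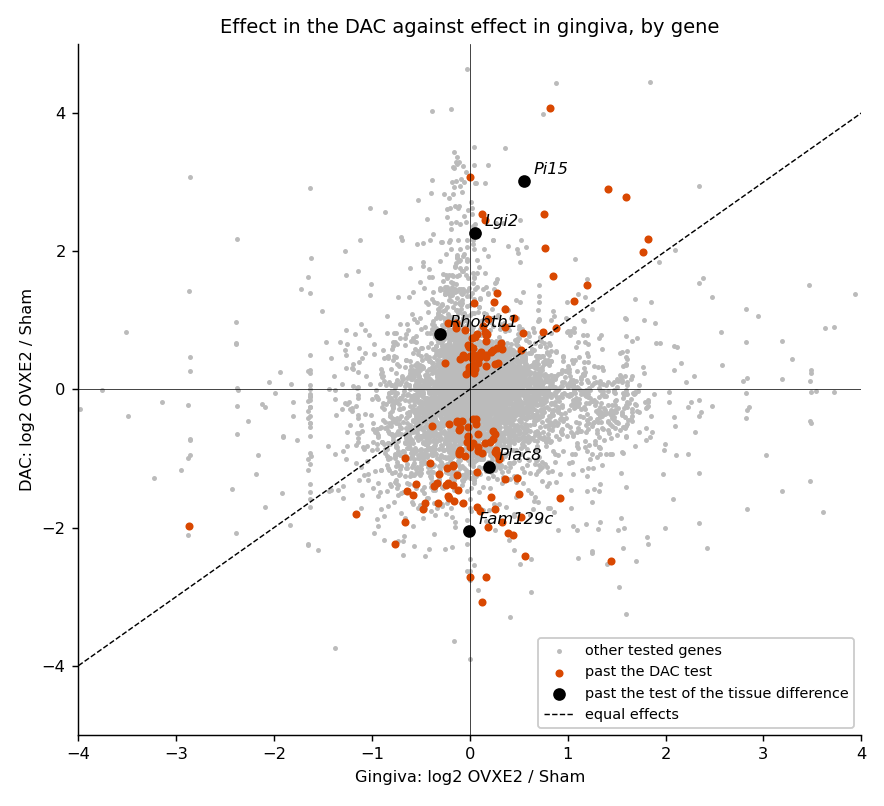
Log2 change of OVXE2 against Sham in gingiva (horizontal axis) and in the DAC (vertical axis) for each gene tested, with the 156 genes past the DAC test in orange, the 5 past the test of the tissue difference in black and the line of equal effects dashed; 18 genes lie outside the axes. The 5 labelled genes lie far from the dashed line and near 0 on the gingival axis.

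Pi15 (peptidase inhibitor 15, ENSMUSG00000067780, chr1:17601901-17630939 in GRCm38), a secreted protein of the CAP family known to inhibit trypsin weakly, had the largest tissue difference of the 5. In the DAC it stood at 5.94, 6.76, 5.18 and 5.11 CPM in the Sham libraries and at 45.9, 57.2, 31.9 and 51 in the OVXE2 libraries. In gingiva it stood at 14.7, 9.66, 7.6 and 6.27 CPM in Sham and at 14.2, 15.7, 13.6 and 12.9 in OVXE2. The DAC groups did not overlap (3.2% of all genes had DAC groups apart with OVXE2 above). Every DAC OVXE2 library was above all 8 gingival libraries, whereas the DAC Sham libraries lay around and below the lowest gingival level. The log2 change was 3.02 ± 0.24 (SE) in the DAC and 0.56 ± 0.23 in gingiva, and the tissue difference was 2.46 ± 0.32 (SE, 95% interval 1.77 to 3.15, adjusted p = 0.0164, edgeR).

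Lgi2 (ENSMUSG00000039252, chr5:52533517-52566462), a secreted leucine-rich repeat protein of the LGI family, was abundant in gingiva. It stood there at 303, 341, 201 and 299 CPM in Sham and at 266, 333, 317 and 273 in OVXE2, ranges that overlap. In the DAC it stood at 7.35, 9.38, 6.55 and 15.2 CPM in Sham and at 52.5, 51.2, 40.9 and 40.1 in OVXE2. All 4 DAC OVXE2 libraries were above all 4 of DAC Sham, as for 3.2% of all genes, and below every gingival library. The change was 2.27 ± 0.23 in the DAC and 0.06 ± 0.22 in gingiva, a tissue difference of 2.21 ± 0.31 (adjusted p = 0.0164, edgeR).

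Rhobtb1 (ENSMUSG00000019944, chr10:69151434-69291791), an atypical GTPase with BTB domains, stood at 24, 22.6, 23 and 24.9 CPM in DAC Sham and at 39, 49.4, 36 and 40.01 in DAC OVXE2. In gingiva it stood at 35.5, 39.1, 49.9 and 40.1 CPM in Sham and at 37, 30.3, 33.7 and 32.6 in OVXE2. The DAC OVXE2 libraries thus reached the gingival range that the DAC Sham libraries were below. The DAC change was 0.80 ± 0.11, the gingival change -0.30 ± 0.11, and the tissue difference 1.10 ± 0.16 (adjusted p = 0.0164, edgeR).

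Lgi2 and Rhobtb1 were higher in gingiva than in DAC Sham, and epithelium makes up much of gingiva. Of the 18 suprabasal epithelial genes tested, 17 had a higher DAC estimate in OVXE2, none past the test, and Krt13, one of them, was never at 0 in the DAC. This rise leaned on 1 library: the list's median tissue difference was 1.15, and -0.07 without DAC OVXE2 1. Basal keratinocyte genes took 0.14 to 0.199% of DAC Sham counts and 0.12 to 0.334% of DAC OVXE2 counts. The part of epithelium in the Lgi2 and Rhobtb1 results was not tested. In a bulk library fewer cells of a type and less RNA per cell cannot be told apart.

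Plac8 (ENSMUSG00000029322, chr5:100553725-100572245), a small cysteine-rich protein known from myeloid and dendritic cells, went the other way. It stood at 99.1, 86.5, 70.8 and 76.9 CPM in DAC Sham and at 35.8, 37.8, 41.8 and 36.7 in DAC OVXE2. These groups did not overlap (2.33% of all genes had DAC groups apart with OVXE2 below). In gingiva it was low in every library, at 9.25, 8.86, 6.42 and 10.6 CPM in Sham and 9.52, 10.6, 10.3 and 10.01 in OVXE2. The DAC change was -1.13 ± 0.13, the gingival change 0.20 ± 0.13, and the tissue difference -1.33 ± 0.18 (adjusted p = 0.0164, edgeR).

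Fam129c (ENSMUSG00000043243, chr8:71597648-71607936), a Niban family member found in B cells, stood at 16.6, 9.99, 12.7 and 8.5 CPM in DAC Sham and at 2.39, 2.25, 3.23 and 3.68 in DAC OVXE2. In gingiva it ran from 1.83 to 2.63 CPM over all 8 libraries. Its DAC OVXE2 levels were thus close to those of gingiva. The DAC change was -2.05 ± 0.22, the gingival change -0.00 ± 0.23, and the tissue difference -2.04 ± 0.32 (adjusted p = 0.0345, edgeR). Genes of some blood cells fell with Plac8 and Fam129c in the DAC. The summed share of 14 immature neutrophil genes was 0.263 to 0.565% in DAC Sham and 0.158 to 0.219% in DAC OVXE2. Of 15 B lymphopoiesis genes, 11 had every OVXE2 library below every Sham library (2.33% of all genes did). Not all blood cell lists fell alike, with DAC medians of -0.01 for monocyte and macrophage genes and -0.17 for erythroid and megakaryocyte genes. The part of blood cells in these 2 results was not tested.

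**Figure D2:**
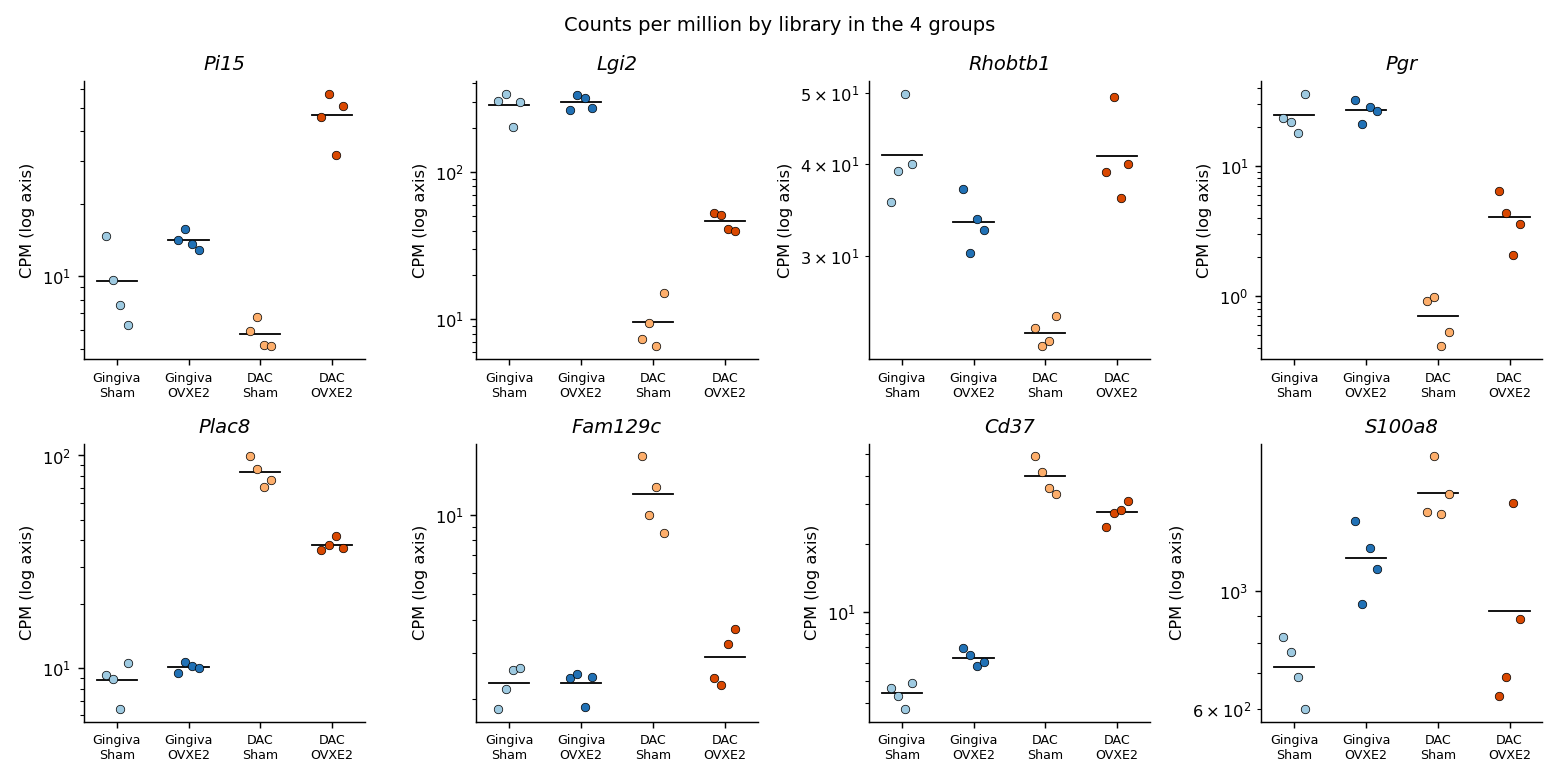
CPM on log axes in each of the 4 libraries of the 4 groups (points, bar at the mean) for the 5 genes past the test and for Pgr, Cd37 and S100a8. For the 5 genes the DAC groups are apart while the gingival groups overlap, and Cd37 is lower in DAC OVXE2 and higher in Gingiva OVXE2 than in Sham.

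The 250 bases before a transcription start site were available from RefSeq (build GRCm38.p6) for 4 of the 5 genes, Pi15 having none in the table. A single window of each gene is shown, 5′ to 3′ on the gene's strand. Capitals mark the half-site of the estrogen response element, GGTCA or its reverse complement TGACC. For Rhobtb1, which has 3 windows, the second is shown, the only 1 of the 3 with a half-site. For Plac8, which has 2, the first is shown, and neither holds a half-site. The windows shown therefore do not compare the genes that were higher with those that were lower.
Lgi2, chr5:52566307-52566556, minus strand: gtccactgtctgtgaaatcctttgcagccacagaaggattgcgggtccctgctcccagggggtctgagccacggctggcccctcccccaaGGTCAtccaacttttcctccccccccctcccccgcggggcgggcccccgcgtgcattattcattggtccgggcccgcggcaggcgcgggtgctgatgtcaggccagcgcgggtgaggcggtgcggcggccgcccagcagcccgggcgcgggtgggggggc
Rhobtb1, chr10:69212407-69212656, plus strand: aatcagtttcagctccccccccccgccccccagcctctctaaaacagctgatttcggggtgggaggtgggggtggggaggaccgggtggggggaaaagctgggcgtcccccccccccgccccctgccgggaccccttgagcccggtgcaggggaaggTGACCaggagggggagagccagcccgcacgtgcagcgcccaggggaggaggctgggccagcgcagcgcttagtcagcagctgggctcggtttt
Plac8, chr5:100572206-100572455, minus strand: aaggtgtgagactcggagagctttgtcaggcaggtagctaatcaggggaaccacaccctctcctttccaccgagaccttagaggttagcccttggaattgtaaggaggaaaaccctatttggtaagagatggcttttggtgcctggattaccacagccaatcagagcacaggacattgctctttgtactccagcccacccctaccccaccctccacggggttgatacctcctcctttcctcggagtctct
Fam129c (RefSeq Niban3), chr8:71597458-71597707, plus strand: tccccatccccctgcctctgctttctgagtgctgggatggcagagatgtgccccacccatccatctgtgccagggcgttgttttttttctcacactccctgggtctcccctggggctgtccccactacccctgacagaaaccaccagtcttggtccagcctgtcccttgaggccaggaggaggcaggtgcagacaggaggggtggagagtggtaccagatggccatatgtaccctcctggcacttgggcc
A half-site was present in 2 of the 7 windows of these genes, the Lgi2 and Rhobtb1 windows shown. Among all 32851 windows of the same length 35.2% held one. The full element GGTCANNNTGACC was in none of the 7 and in 0.0639% of all windows. A match describes letters in a window, not a site.

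The next genes in order of p did not pass. Whrn (whirlin, a PDZ scaffold protein known from sensory hair cells) stood at 22.2, 19.4, 22.7 and 20.4 CPM in DAC Sham and 41.6, 42.7, 39.4 and 42.2 in DAC OVXE2, against 7.08 to 11.1 and 6.64 to 8.4 in gingiva (Sham first, here and in each later pair of groups), a tissue difference of 1.11 ± 0.18 (adjusted p = 0.057, edgeR). Cd37, a tetraspanin of B cells and other leukocytes, had estimates of opposite sign. It stood at 48.8, 41.7, 35.5 and 33.4 CPM in DAC Sham and 23.8, 27.5, 28.2 and 31.1 in DAC OVXE2, but at 4.62, 4.28, 3.74 and 4.9 in Gingiva Sham and 6.94, 6.46, 5.8 and 6.05 in Gingiva OVXE2. The groups did not overlap in either tissue, with a DAC change of -0.53 and a gingival change of 0.52, and the tissue difference was -1.05 ± 0.18 (adjusted p = 0.0651, edgeR). Over all genes tested, 2.52% had gingival groups apart with OVXE2 above and 2.33% had DAC groups apart with OVXE2 below.

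Il16 (a precursor of a lymphocyte chemoattractant), Adap1 (an Arf GTPase-activating protein) and Cst7 (cystatin F, a protease inhibitor of leukocytes) completed the 10 named genes with the smallest p, at tissue differences of -0.85, -1.05 and -2.18 and adjusted p of 0.078, 0.078 and 0.0899 (edgeR). All 3 fell in the DAC with no overlap between groups (2.33% of all genes did). The DAC change enters the p by which they were picked. Cst7, for one, stood at 11.9, 8.83, 7.91 and 6.39 CPM in DAC Sham and 1.94, 2.0, 2.94 and 1.93 in DAC OVXE2, and at 0.335 to 0.802 over the 8 gingival libraries. With DESeq2, which called 80 of 13837 genes for the tissue difference, Whrn, Cd37, Il16, Adap1 and Cst7 all passed. They also passed by edgeR without DAC OVXE2 3, at 1.13, -1.06, -0.87, -1.12 and -2.35 (adjusted p of 0.0203, 0.0295, 0.0325, 0.0203 and 0.0203). Of the 16 fits that leave out 1 library, Whrn and Cd37 passed in 2 and Il16, Adap1 and Cst7 in 1. In those 16 fits their adjusted p reached 0.145, 0.146, 0.196, 0.184 and 0.209 (edgeR, Whrn, Cd37, Il16, Adap1 and Cst7 in turn).

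How far these calls depend on single libraries is shown by leaving out each library in turn. The number of genes past the test was 0 without Gingiva Sham 2, Gingiva OVXE2 2 or Gingiva OVXE2 4, between 1 and 6 without any of the other libraries but 1, and 69 without DAC OVXE2 3. In the 3 fits with 0 calls, 997, 853 and 764 genes had an unadjusted p under 0.05 by edgeR. The 5 genes kept their direction in all 16 of these fits. Pi15 passed in 12 of them, Plac8 in 13, Rhobtb1 in 10, Lgi2 in 9 and Fam129c in 5, with an adjusted p of at most 0.129 for any of the 5.

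**Figure D3:**
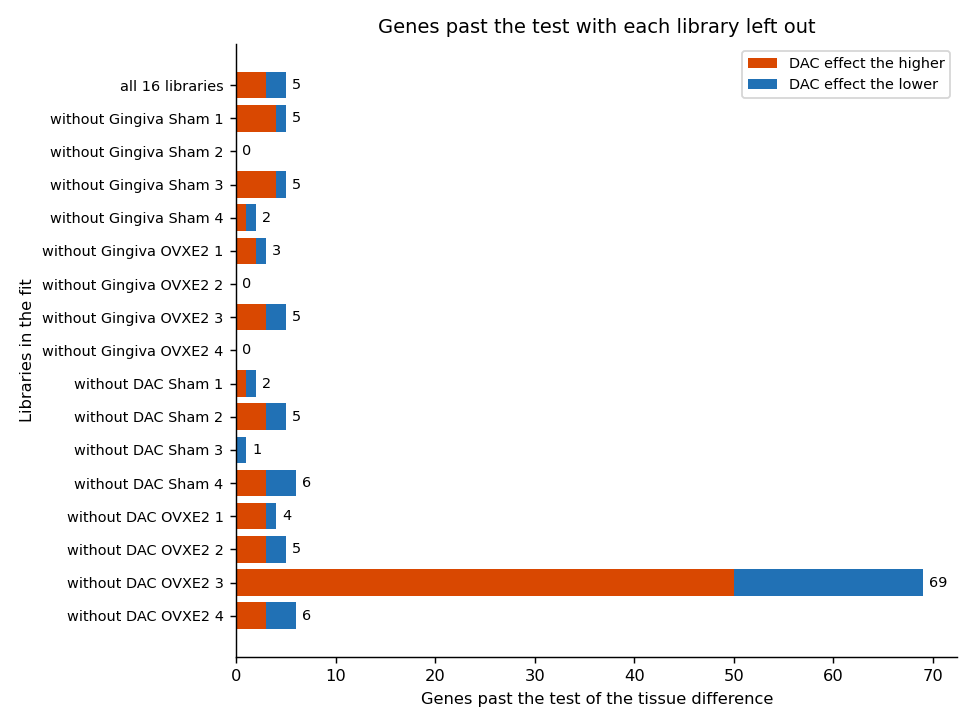
Number of genes past the test of the tissue difference (horizontal axis) in the fit of all 16 libraries and in each fit that leaves out 1 library (vertical axis), split by direction. The count is 5 with all libraries, 0 in 3 of the fits and 69 without DAC OVXE2 3.

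Estrogen response genes were examined next, first the receptors. Esr1, the gene of ERα, stood at 2.17 to 4.01 CPM in Gingiva Sham, 2.99 to 4.19 in Gingiva OVXE2, 15.7 to 18.1 in DAC Sham and 12.2 to 19.5 in DAC OVXE2. The groups overlapped in both tissues and its tissue difference was -0.40 ± 0.25 (95% interval -0.93 to 0.13). ERβ was not analysed here. Of 18 receptors and classical targets tested none passed by edgeR, and Pgr alone did by DESeq2. By edgeR 2 had an unadjusted p under 0.05 with the DAC change higher (3.41% of all genes) and 3 with it lower (3.69%). The median tissue difference was -0.13, beside 0.03 over all genes, and was -0.26 without Gingiva OVXE2 1, -0.23 without DAC Sham 2 and -0.26 without DAC OVXE2 3.

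Pgr, the progesterone receptor and a textbook target of ERα, stood out of that list by its size. It stood at 0.914, 0.975, 0.409 and 0.529 CPM in DAC Sham and at 6.35, 4.33, 2.07 and 3.55 in DAC OVXE2, where it rose with no overlap (log2 change 2.54 ± 0.37, adjusted p = 0.00294, edgeR). In gingiva it was far more abundant, at 23.5, 21.8, 17.9 and 35.9 CPM in Sham and 31.8, 21.2, 28.4 and 26.6 in OVXE2, with overlapping groups and a change of 0.12 ± 0.28. The tissue difference was 2.41 ± 0.46 (adjusted p = 0.0991, edgeR), which did not pass with all 16 libraries and did without DAC OVXE2 3 (2.62, adjusted p = 0.0149). Pgr passed in only that 1 of the 16 fits that leave out 1 library (adjusted p up to 0.22, edgeR).

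A list of 11 genes that estradiol raised in the DAC in an earlier analysis that used the DAC OVXE2 libraries was followed into gingiva. That choice fixes their DAC direction, and the DAC change enters the tissue difference, so the values of both are a description. The median change was 1.52 in the DAC and 0.56 in gingiva, where all genes had medians of 0.04 and 0.00. In gingiva 10 of the 11 had a higher estimate in OVXE2, and 3 (Trpc6, Asb4 and Mgl2) had every OVXE2 library above every Sham library (2.52% of all genes did). None passed the gingival test by edgeR, and Mgl2 did by DESeq2. For the tissue difference edgeR and limma-voom called Pi15 alone, DESeq2 6 of the 11 (A2m, Aldh1a2, Pgr, Pi15, Tenm4 and Trpc6), and edgeR without DAC OVXE2 3 Pi15, Pgr, Tenm4 and Trpc6. Over all genes DESeq2 called 29 of 13837 with the DAC change higher, and edgeR without DAC OVXE2 3 called 50 of 14105.

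Trpc6, a calcium-permeable cation channel, was higher in both tissues. It stood at 7.54, 9.14, 7.96 and 5.6 CPM in DAC Sham and 34.3, 38, 25.4 and 27.2 in DAC OVXE2, and at 1.12, 0.84, 0.782 and 0.971 in Gingiva Sham and 1.53, 1.77, 1.51 and 1.54 in Gingiva OVXE2. The groups were apart in both tissues, the changes were 2.05 ± 0.16 and 0.76 ± 0.19, and the tissue difference of 1.28 ± 0.25 did not pass (adjusted p = 0.0991, edgeR). Without DAC OVXE2 3 it was 1.37 and passed (adjusted p = 0.024). A2m, a broad protease inhibitor, stood at 8.49, 10.7, 11.6 and 11.5 CPM in DAC Sham, 60.8, 75.5, 45.9 and 62.8 in DAC OVXE2, 0.958, 0.882, 0.447 and 0.566 in Gingiva Sham and 1.22, 1.9, 1.17 and 0.626 in Gingiva OVXE2. Its tissue difference was 1.78 ± 0.39 (adjusted p = 0.158, edgeR). Aldh1a2, which makes retinoic acid, and Wnt4, a secreted signalling protein, differed by 1.11 ± 0.24 and 1.03 ± 0.23 (adjusted p = 0.147 and 0.158, edgeR). Without DAC OVXE2 3 Wnt4 differed by 1.13 and passed (adjusted p = 0.0343). Wnt4 passed in no other fit that leaves out 1 library (adjusted p up to 0.33, edgeR). It stood at 369 to 437 CPM in Gingiva Sham and 350.4 to 369 in Gingiva OVXE2, and at 18.5 to 29.4 and 36.2 to 65.7 in the DAC groups.

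Mgl2, a lectin of macrophages and dendritic cells that was singled out after its values were seen, was higher in OVXE2 in both tissues. It stood at 8.72, 7.68, 8.87 and 7.36 CPM in DAC Sham and 21, 18.6, 19.6 and 19.97 in DAC OVXE2, and at 2.67, 3.78, 5.08 and 3.64 and 7.03, 6.0, 8.14 and 10.4 in the gingival groups. The changes were 1.28 ± 0.18 and 1.06 ± 0.18, with no overlap in either, and the tissue difference 0.21 ± 0.25 had a 95% interval of -0.33 to 0.75, which contains 0.

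Among blood cell genes, those of B lymphopoiesis had the lowest median tissue difference of the 45 lists, -2.49, from -1.90 in the DAC and 0.45 in gingiva. None of the 15 passed the test of the tissue difference by edgeR or limma-voom. By DESeq2 6 did, all lower, Spib and Vpreb3 among them (51 of all 13837 genes did, in that direction). By edgeR all 15 had a lower estimate (45.3% of all genes did), and 10 had an unadjusted p under 0.05 (3.69% of all genes did, in that direction). In the DAC 5 of the 15 fell past the test (0.607% of all genes did). The gene lists were chosen with earlier results of these data known, so these counts and those of the later lists are a description. Spib, a transcription factor of B cells, had the smallest p of the list. It stood at 26.3, 23.2, 23.5 and 17.4 CPM in DAC Sham and 5.69, 8.65, 5.8 and 10.3 in DAC OVXE2, and at 0.458, 1.22, 0.838 and 0.688 and 3.1, 1.01, 1.17 and 0.793 in the gingival groups, a tissue difference of -2.49 ± 0.54 (adjusted p = 0.147, edgeR).

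Of the 15, 8 averaged under 1 CPM in gingiva, which bounds what a ratio there can show. Rag1, which cuts antigen receptor genes, stood at 0.125, 0.252, 0.168 and 0.0809 CPM in Gingiva Sham and 0.131, 0.253, 0.303 and 0.167 in Gingiva OVXE2, against 9.18, 8.83, 7.28 and 4.19 and 1.49, 2.11, 0.539 and 2.69 in the DAC. Pax5, which commits cells to the B lineage, stood at 0.125, 0.126, 0.67 and 0.0809 and 2.4, 0.211, 0.0866 and 0.125 in gingiva, and at 15.9, 11.5, 14.1 and 8.77 and 2.46, 4.22, 1.7 and 4.06 in the DAC. For Pax5 and Spib, Gingiva OVXE2 library 1 was above the other 7 gingival libraries. Without it the list's median moved to -1.37, and over the 7 members that averaged 1 CPM or more in both tissues, which include genes of other cells such as Cd24a, the median was -0.24. Rag2 was at 0 in all 8 gingival libraries, and without it the list's median was -2.48.

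Granulocyte genes had gingival and DAC medians on opposite sides of 0. The 11 mature neutrophil genes had a median change of -0.44 in the DAC and 0.53 in gingiva, where all 11 had a higher estimate in OVXE2, and a median tissue difference of -1.11. Their summed share of counts was 0.161 to 0.228% in Gingiva Sham and 0.294 to 0.351% in Gingiva OVXE2, which do not overlap, and 0.728 to 0.916% and 0.507 to 0.782% in the DAC, which do. None of the 11 passed any of the 3 tests by edgeR, and 5 had an unadjusted p under 0.05 for the tissue difference, all lower (3.69% of all genes). DESeq2 called S100a8 and S100a9 for the tissue difference. S100a8, a subunit of calprotectin that keratinocytes also make, carried much of that share together with its partner S100a9.

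S100a8 stood at 821, 766, 689 and 598 CPM in Gingiva Sham and 1357, 947, 1211 and 1105 in Gingiva OVXE2, so that every OVXE2 library was above every Sham library. In the DAC it stood at 1415, 1803, 1402 and 1531 in Sham and 634, 687, 1471 and 888 in OVXE2, where library 3 lay inside the Sham range and the other 3 below it. The tissue difference was -1.43 ± 0.31 (adjusted p = 0.148, edgeR). Without DAC OVXE2 3 it was -1.75 and passed (adjusted p = 0.00877). In no other fit that leaves out 1 library did S100a8 pass (adjusted p up to 0.33, edgeR). S100a9, named after its values were seen, was also apart between the gingival groups. Over all genes tested, 2.52% had gingival groups apart with OVXE2 above. The other 9 neutrophil genes overlapped there, and Gingiva OVXE2 library 2 was the highest of its group for several, with Il1b at 39.8, 159, 78.3 and 63.2 CPM against 57.2, 54.2, 28.2 and 67.7 in Sham; without that library the list's median was -0.63.

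Immature neutrophil genes, a list drawn to mark granulopoiesis in marrow, had a median tissue difference of -1.29, from -1.13 in the DAC and 0.24 in gingiva. Without Gingiva OVXE2 2 it was -0.78. In the DAC 8 of 14 fell past the test (0.607% of all genes did). None passed for the tissue difference by edgeR, where 7 had an unadjusted p under 0.05, all lower (3.69% of all genes), and Ltb4r1 alone passed by DESeq2. Mpo, the myeloperoxidase of their granules, stood at 414, 383, 244 and 178 CPM in DAC Sham and 76.2, 133, 87.6 and 100.1 in DAC OVXE2 but only at 0.21 to 0.67 and 0.0866 to 0.676 in the gingival groups. Ltb4r1, a leukotriene receptor, was measured well in both tissues: 25.4, 26.1, 20.2 and 21.5 CPM in DAC Sham, 13.6, 14.7, 12.9 and 17.2 in DAC OVXE2, and 59.5 to 67.3 and 57.4 to 66.3 in gingiva. Its tissue difference was -0.65 ± 0.14 (adjusted p = 0.138, edgeR). Every gingival library was above every DAC library for Ltb4r1, so its DESeq2 call does not stand for immature neutrophils of marrow.

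Of the other leukocyte lists, T and NK cell genes had a median tissue difference of -0.85, with 16 of 17 estimates lower; it was -0.54 with the nasal share as a covariate and -0.36 without the 2 DAC libraries richest in nasal genes. Lck, a T cell kinase, had the smallest p at -1.11 ± 0.34 (adjusted p = 0.46, edgeR). Monocyte and macrophage genes had a median of -0.05, from -0.12 to 0.07 on leaving out 1 library; among them Ccr2, through which monocytes leave the marrow, stood at 43.8 to 69.4 CPM in DAC Sham, 22.3 to 30.9 in DAC OVXE2, 11.8 to 16.1 in Gingiva Sham and 11 to 14.7 in Gingiva OVXE2, a tissue difference of -0.91 ± 0.22 (adjusted p = 0.245, edgeR). Mast cell, basophil and eosinophil genes had a median of -0.83, and genes of mature B and plasma cells one of -0.96, which was 0.16 without Gingiva OVXE2 1. None of the members of these 4 lists passed for the tissue difference by edgeR with all libraries; DESeq2 called Ccr2 and Cd37, and edgeR without DAC OVXE2 3 called Cd37 and Prdm1.

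Dendritic cell genes included a pair with low values in both tissues after estradiol, singled out after their values were seen. Cd209a, a lectin of monocyte-derived dendritic cells, stood at 2.5, 2.86, 3.41 and 2.95 CPM in Gingiva Sham and 1.14, 1.31, 1.08 and 1.67 in Gingiva OVXE2, and at 7.08, 4.51, 9.32 and 6.61 in DAC Sham and 1.21, 1.42, 2.78 and 2.48 in DAC OVXE2. Flt3, the receptor that dendritic cell progenitors need, stood at 2.9 to 4.24 and 1.92 to 2.53 in gingiva and at 4.89 to 6.47 and 2.19 to 3.42 in the DAC. Both fell past the test in the DAC (log2 -1.80 and -0.99) and had gingival estimates of -1.17 and -0.67 with OVXE2 wholly below Sham, as 1.99% of all genes had. Their tissue differences of -0.64 ± 0.39 and -0.33 ± 0.25 had 95% intervals of -1.48 to 0.20 and -0.87 to 0.21, both of which contain 0. Ccr7, a chemokine receptor of migrating dendritic cells, differed by -0.95 ± 0.39 (adjusted p = 0.658, edgeR).

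**Figure D4:**
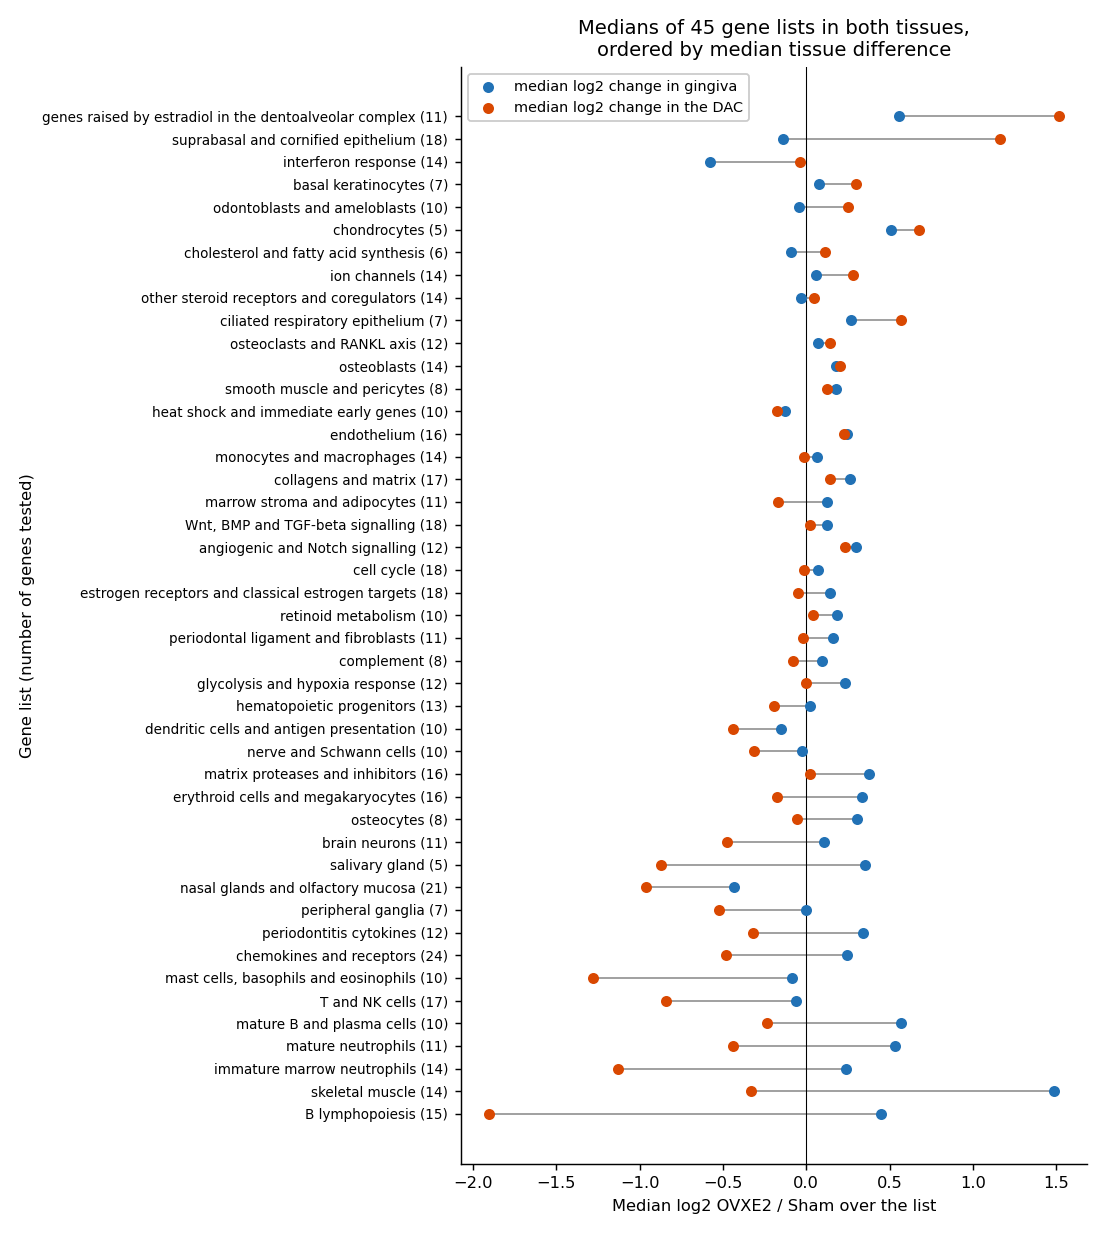
Median log2 change of OVXE2 against Sham over the tested genes of each of 45 lists (vertical axis, with the number of genes) in gingiva (blue) and the DAC (orange), ordered by the median tissue difference. B lymphopoiesis lies lowest at -2.49, the genes raised by estradiol in the DAC highest at 1.15, and the endothelial list has nearly the same median in both tissues.

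In other groups of genes both tissues had similar medians. Endothelial genes had a median change of 0.23 in the DAC and 0.25 in gingiva and a median tissue difference of -0.00; 15 of 16 had a higher estimate in OVXE2 in each tissue, none past a test. Cdh5, the cadherin of endothelial junctions, stood at 65.8, 70.2, 44.4 and 59.9 CPM in Gingiva Sham, 79.1, 109.5, 63.7 and 72.8 in Gingiva OVXE2, 188, 186, 175 and 195 in DAC Sham and 226, 279.9, 229 and 262 in DAC OVXE2. Its changes were 0.43 ± 0.16 in the DAC and 0.44 ± 0.16 in gingiva, and the tissue difference -0.01 ± 0.22 had a 95% interval of -0.48 to 0.46. Collagen and matrix genes had medians of 0.14 and 0.26, with all 17 higher in gingiva by estimate and none past a test by edgeR. DESeq2 called 2 of the 17 in the DAC, Fn1 and Thbs1, both higher (142 of all 13837 genes were, in that direction).

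Osteoclast and RANKL axis genes had a median tissue difference of 0.07 (-0.08 to 0.23 on leaving out 1 library) and osteoblast genes one of 0.04 (-0.12 to 0.14), and osteocyte genes one of -0.54, which was -0.33 without Gingiva OVXE2 2. Ctsk, the collagenase of osteoclasts, stood at 3085 to 3564 CPM in DAC Sham and 3076 to 3776 in DAC OVXE2, and at 103 to 172 and 95.6 to 186 in gingiva (tissue difference 0.02 ± 0.27, 95% interval -0.55 to 0.59). Acp5, the acid phosphatase TRAP, differed by 0.23 ± 0.21, and Tnfsf11, the osteoclast cytokine RANKL, by -0.82 ± 0.49 with overlapping groups in both tissues. Bglap (osteocalcin) differed by 0.99 ± 0.53, at 343 to 782 CPM in DAC Sham and 429 to 969.8 in DAC OVXE2 but 3.17 to 11.4 and 2.27 to 4.46 in gingiva. Sost, the Wnt inhibitor of osteocytes, differed by -1.01 ± 0.58 and stood at 0.279 to 0.485 CPM in Gingiva Sham and 0.0866 to 1.09 in Gingiva OVXE2.

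Dspp, the dentin sialophosphoprotein of odontoblasts, stood at 525, 517, 427 and 421 CPM in DAC Sham and 715, 920.3, 366 and 716 in DAC OVXE2, and at 0.667, 0.798, 0.838 and 1.29 and 0.393, 0.38, 0.433 and 0.501 in the gingival groups. The gingival groups did not overlap, at very low levels, and in the DAC library 3 was the lowest of all 8 and the other 3 OVXE2 libraries were above Sham. The tissue difference was 1.60 ± 0.40 (adjusted p = 0.277, edgeR), and 1.80 (adjusted p = 0.0149) without DAC OVXE2 3. Dspp passed in no other fit that leaves out 1 library (adjusted p up to 0.56, edgeR).

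Lists of tissues that a dissection can carry along varied between single libraries. Suprabasal epithelial genes had a median tissue difference of 1.15, which was -0.07 without DAC OVXE2 1, the library with 0.985% of its counts in the list. Skeletal muscle genes had the second lowest median of the 45 lists, -1.83, from -0.33 in the DAC and 1.49 in gingiva. Their share of counts was 0.0372 to 0.229% in Gingiva Sham, 0.194 to 0.626% in Gingiva OVXE2, 0.10 to 0.423% in DAC Sham and 0.0401 to 0.425% in DAC OVXE2, overlapping in both tissues. No gene of these 2 lists passed for the tissue difference by edgeR or DESeq2.

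**Figure D5:**
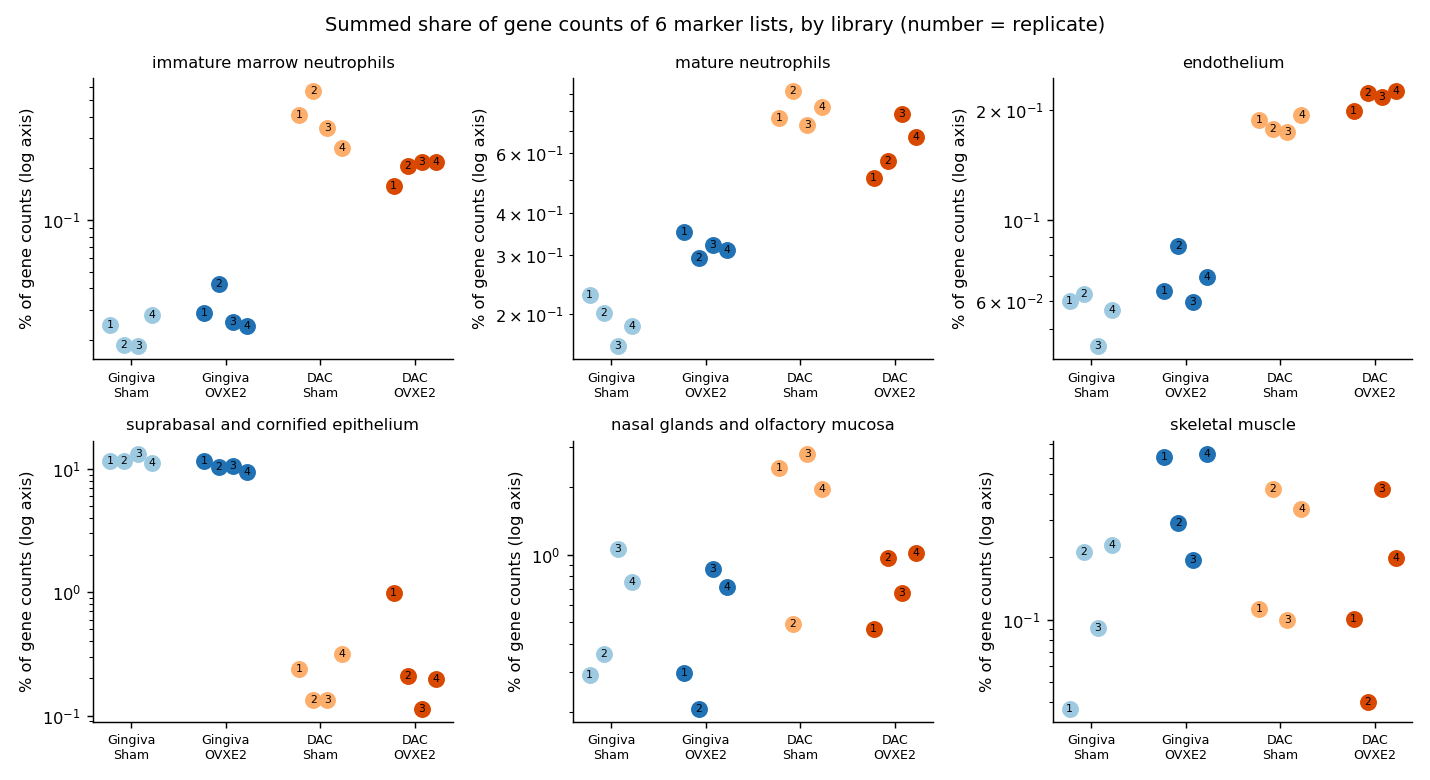
Share of all gene counts, in percent on log axes, taken by 6 marker lists in each library of the 4 groups (the digit is the replicate number). Mature neutrophil genes are apart between the gingival groups (0.161 to 0.228% against 0.294 to 0.351%), and library 1 of DAC OVXE2 has the highest DAC share of suprabasal epithelial genes.

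Inflammatory mediators were the last group. All 24 chemokines and receptors had a lower estimate of the tissue difference, with a median of -0.68 (-0.48 in the DAC and 0.24 in gingiva); none passed for the tissue difference by edgeR or DESeq2, and 6 had an unadjusted edgeR p under 0.05, all lower (3.69% of all genes). Ccl17, a chemokine for T helper and regulatory T cells, had the smallest p but was low everywhere, at 0.762, 0.305, 0.546 and 0.397 CPM in DAC Sham, 0.0694, 0.0727, 0.0829 and 0.138 in DAC OVXE2, and 0.121 to 0.336 and 0.211 to 0.459 in gingiva (-2.98 ± 0.57, adjusted p = 0.0991, edgeR). Cytokines of periodontitis had a median of -0.63, with 11 of 12 estimates lower; edgeR called none of them and DESeq2 Il17f. It stood at 3.43, 0.305, 3.82 and 4.41 CPM in DAC Sham, 0.625, 0.291, 0.497 and 0.895 in DAC OVXE2, 1.12, 0.378, 0.112 and 0.728 in Gingiva Sham and 1.14, 1.06, 1.21 and 2.29 in Gingiva OVXE2, a tissue difference of -3.62 ± 0.93 (adjusted p = 0.296, edgeR) with overlap in both tissues. Il17a, Il6 and Il1b differed by -2.0 ± 0.81, -1.26 ± 0.94 and -1.11 ± 0.55, none past the test by edgeR or DESeq2.

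Interferon response genes had estimates in the other direction, with a median tissue difference of 0.42 from -0.04 in the DAC and -0.58 in gingiva, where all 14 had a lower estimate in OVXE2 and none passed by edgeR or DESeq2. The median was 0.27 without Gingiva Sham 3, 0.14 without Gingiva Sham 4 and 0.26 without DAC Sham 2. Ifi44, which interferon induces, stood at 3.58, 2.9, 11.7 and 9.02 CPM in Gingiva Sham and 3.36, 3.55, 3.9 and 3.88 in Gingiva OVXE2, and at 4.68 to 6.28 and 5.96 to 10.4 in the DAC (tissue difference 1.34 ± 0.50, adjusted p = 0.636, edgeR). Sham libraries 3 and 4 were the high ones, and Sham libraries 1 and 2 were within or below the OVXE2 range.

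The 156 genes called in the DAC were then read in gingiva. Of the 72 that rose in the DAC, 57 (79.2%) had a higher estimate in gingiva as well, with a median change of 0.75 in the DAC and 0.15 in gingiva. Of the 84 that fell, 44 (52.4%) had a lower estimate in gingiva, with medians of -1.21 and -0.01. Over all genes 52.7% had the same sign in both tissues. The 2 changes come from separate libraries, but the genes were chosen by the DAC change, which also enters the tissue difference, so the 122 of the 156 with an unadjusted p under 0.05 for that difference are a description.

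Without DAC OVXE2 3 the fit called 69 genes of 14105 (0.489%) for the tissue difference, 50 with the DAC change higher and 19 with it lower, and the 5 genes above were among them. For the DAC alone it called 1349, of which 1118 were higher. This fit is 1 of the 16 that leave out a library. It is described because the library stood farthest from its group by median absolute deviation. No member of the basal or suprabasal epithelial lists was called. Among the 50, named here after their values were seen, were Cdh1 (E-cadherin) at 0.80, Pard3 at 0.54, Patj at 0.63, Prkci at 0.44 and the transcriptional coactivator Yap1 at 0.40 (edgeR adjusted p of 0.0386, 0.0268, 0.0203, 0.0154 and 0.0295). Among the 19 were S100a9 at -1.80 and the leukocyte genes Coro1a, an actin regulator, at -1.10 and Arhgdib, a regulator of small GTPases, at -1.07 (adjusted p of 0.0140, 0.0149 and 0.0149). The epithelial share of counts moves with this fit, since the library left out had the lowest of the 8 DAC libraries, and its part in these calls was not tested.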

How the data were processed

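Gingival and dentoalveolar (DAC) RNA was enriched for poly(A) and sequenced in paired-end mode, per the labels' protocols. The values used are the authors' deposited read counts per gene and library, 1 file per library in the layout of STAR gene counts. The submitters' processing notes name fastp, STAR, DESeq2 and the builds GRCm38 and mm10; their versions, the annotation and any filters were not stated in those sources. For each library, counts of the opposite strand were used, since the other strand held 3.48 to 9.03% of stranded counts. Lines that name no gene (unmapped 0.587 to 1.04% of reads, multimapped 6.40 to 9.22%, no feature 21.0 to 32.2%, ambiguous 0.872 to 1.19%) were dropped. Of 38321 gene IDs, 38186 were named from GENCODE M21.

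Samples were grouped by their titles. The 16 libraries of 4 groups entered 1 edgeR 4.0.16 fit (R 4.3.3, filterByExpr, TMM scaling, robust quasi-likelihood test, 12 residual degrees of freedom), which tested 13837 genes, with a threshold of 0.05 on the p adjusted over all of them by Benjamini and Hochberg. Levels are CPM, counts scaled by TMM library sizes, and compare libraries for 1 gene, not genes. No 2 libraries of the same group agreed within counting noise, and pairs across groups were not compared. The analysis was tested on simulated data. Alternatives used DESeq2 1.42.0, limma 3.58.1 voom, other scalings, filters and covariates, replicate blocks and sets of libraries.

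The question, the 45 gene lists and the panel of 24 genes (22 tested) were chosen with earlier results of these data known. Of 733 list symbols 554 were in the files and 537 were tested. Named genes are the called genes with a group mean log2 CPM of at least 1 (at most 12 per direction; with under 6 such genes, the 10 of smallest p instead), up to 4 called members or otherwise the member with the smallest p of each list, and the panel. Esr2, Greb1 and Tnf were not analysed here. Some genes are not reported here.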

Additional observations from a re-analysis of the deposited data

Results flagged for a closer look

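The 5 genes whose OVXE2 to Sham change differed between the tissues by the test itself were Pi15 (2.46), Lgi2 (2.21), Rhobtb1 (1.10), Plac8 (-1.33) and Fam129c (-2.04), on the log2 scale.

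In 12 of 164 groups of 4 libraries, over 31 named genes and 10 list shares, 1 library lay far from the other 3 of its group. Chance gives about 1 in 20 groups. Over all genes, on log2 CPM, libraries 1 to 4 of Gingiva Sham stood alone for 1.37, 1.19, 3.48 and 1.66% of genes. The shares were 1.61, 1.35, 1.07 and 1.73% in Gingiva OVXE2, 1.01, 2.67, 0.549 and 2.6% in DAC Sham and 1.03, 1.13, 2.97 and 0.94% in DAC OVXE2. The 4 shares of a group add up, so 12 of 164 was near the share over all genes. Gingiva OVXE2 3 was lowest for Fam129c (1.86 CPM), and Gingiva OVXE2 2 highest for Trpc6 (1.77). Gingiva OVXE2 1 was highest for the B lineage genes Pax5 (2.40) and Vpreb3 (0.568). Gingiva Sham 3 was highest for Whrn (11.1), Pax5 (0.670), Mpo (0.670) and Elane (0.335), the last being neutrophil elastase. Gingiva Sham 4 was highest for Sost (0.485). DAC OVXE2 3 was highest for Cst7 (2.94), still below every DAC Sham library. DAC OVXE2 1 was highest for Krt13 (2712) and for the share of suprabasal epithelial genes (0.985%).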

How the results depend on the processing

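The 5 called genes kept their direction under all 33 alternatives. The number of genes past the test of the tissue difference was 80 with DESeq2, 9 with all 24 libraries fitted together, 8 without a filter on low counts and 8 with counts of either strand. It was 1 with limma-voom and a weight per tissue, and 1 in the libraries with the higher share on the other strand. It was 0 without the libraries rich in nasal genes and 0 without those rich in neuron or epithelial genes (1040 and 721 genes at an unadjusted edgeR p under 0.05; no other tool was run), 2 sets chosen after seeing the data. Leaving out 1 library gave 0 to 69. The DAC count of 156 was 340 with DESeq2, 84 with the nasal share as a covariate, 72 and 85 without the same 2 sets, 76 in the higher other-strand set, and 85 to 1349 on leaving out 1 library, passing 1.5 times without DAC Sham 3 (85), DAC OVXE2 1 (91), DAC OVXE2 2 (93) and DAC OVXE2 3 (1349). DESeq2 called 10 genes in gingiva, edgeR none.

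Whether equal replicate numbers mark the same mouse could not be told from the counts. Correlations of the deviations of libraries with equal numbers ran from -0.336 to 0.252, over 0.1 in 2 of 8 pairs. Those of libraries with different numbers ran from -0.206 to 0.321, and 3 gingival libraries correlated best with their own number. Tissues of the same mouse need not deviate alike, so this check decides neither way. With a replicate block of surgery and number the tissue difference had 3 calls, and with a replicate block of number alone 1.

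Panel genes near 0 changed sign. Cdh5 (-0.01) was 0.000797 with voom and tissue weights, 0.0248 with the neuron share as a covariate, 0.0346 without the neuron or epithelium rich set and 0.37 in the higher other-strand set. Ctsk (0.02) was -0.0117 with scaling within tissues, -0.00675 among genes at 1 CPM in both tissues, -0.0276 with the nasal covariate and -0.0567 without the nasal set. Krt13 (0.65) was -1.02 without the neuron or epithelium rich set, and Col1a1 (-0.06) was 0.15 in the higher other-strand set. Leaving out 1 library gave -0.13 to 0.16 for Ctsk, -0.11 to 0.17 for Cdh5, -0.20 to 0.16 for Col1a1 and -0.77 to 1.17 for Krt13. The cause was not tested. Genes near 0 counts in gingiva limit what their ratios can show.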

Other observations

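The gene groups that follow had no member past the edgeR test of the tissue difference with all 16 libraries; DESeq2 called A2m of the matrix proteases and inhibitors and Trpc6 of the ion channels, and edgeR without DAC OVXE2 3 called Trpc6. Erythroid and megakaryocyte genes, which marrow makes, had a median tissue difference of -0.52 over 16 genes, from -0.17 in the DAC and 0.34 in gingiva; it was -0.20 without DAC Sham 1 and -0.31 without DAC OVXE2 1. Matrix proteases and their inhibitors, which turn over the matrix, had a median change of 0.02 in the DAC and 0.38 in gingiva over 16 genes, 1 of them at an unadjusted edgeR p under 0.05 in each direction (3.41% of all genes with the DAC change higher and 3.69% with it lower). Angiogenic and Notch signalling genes, like those of endothelium, had medians above 0 in both tissues, 0.23 in the DAC and 0.30 in gingiva over 12 genes. Cell cycle genes had medians of -0.02 and 0.07 over 18 genes, and 3 of 14 ion channel genes had an unadjusted edgeR p under 0.05, all with the DAC change higher (3.41% of all genes).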
